A study of Mus musculus with 3 samples.

Results

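The genes described here code for the proteasome, its assembly chaperones and its regulators, in the mouse muscle line C2C12 with and without knockdown of Tead4, one of the TEAD transcription factors. They were chosen by symbol: rows of the gene table whose symbol is Psm, a letter from a to g and a number, without Psmb8, Psmb9 and pseudogene rows, and with at least 50 reads summed over the 3 libraries. The rule took 45 of the 20162 genes in the table. One of them, Psmc3ip, codes for a recombination cofactor and not for a proteasome protein, and it is left out of the counts below, which cover the other 44. The study used 3 populations of C2C12 cells, a line of myoblasts that form myotubes once serum is reduced. Each had received a lentiviral vector for a short hairpin RNA (shRNA) and was kept in puromycin. The populations ShA and ShB each expressed a different shRNA against Tead4, and ShSC expressed a control shRNA. All 3 had been differentiated for 7 days in medium with horse serum, and polyadenylated RNA of each gave 1 library. Nothing in the labels describes repeat cultures or single clones, so each library stands for 1 infected population. A p-value here rests on the spread between ShA and ShB, which may be technical and also holds any difference between the shRNAs. The test takes this spread mostly from all tested genes together and only in small part from the gene itself. Near the limit of the rule, Psme2 entered with 336 summed reads and Psmc3ip with 157, while Psmb8 with 5 and Psmb9 with 2 would have stayed below it.

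The proteasome breaks down proteins that carry ubiquitin chains. Its 20S core is a barrel of alpha and beta rings, with the proteolytic sites on 3 of the beta subunits, and its 19S cap has a base with 6 ATPases that unfold the substrate and a lid that removes ubiquitin. In skeletal muscle this system is a main route for the breakdown of myofibrillar proteins. Because the subunits work in fixed proportions, their genes are often regulated together, and the transcription factor Nfe2l1 (Nrf1) is the best known activator of the whole set in mammalian cells.

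The libraries held 19918954 (ShA), 15594305 (ShB) and 16412139 (ShSC) counted reads. Tead4 fell: it had 397 reads in ShA and 170 in ShB, against 1256 in ShSC, or -2.35 as a log2 fold change (standard error, SE, 0.27). The myotube label was met, with Myh3, Acta1, Ckm, Des, Tnnt3, Myog and the fusion gene Tmem8c at 5747 reads or more in each library. Of these 7 markers, 4 fell, where 4.48% of all tested genes fell. The summed level of the 7 was 11866 CPM (counts scaled to library depth) in ShA and 14116 in ShB, against 19575 in ShSC. All 5 tested markers of dividing cells (Mki67, Top2a, Ccnb1, Ccna2 and Plk1) rose, where 5.34% of all tested genes rose. Their summed level was 147 CPM in ShA and 148 in ShB, against 32.2 in ShSC. Of the markers of other cell types in the table, Krt8, Krt18 and Pecam1 had 4 reads or fewer in every library, and Cd34 rose (log2 fold change 1.23, SE 0.27). In bulk RNA, fewer cells of a type and less RNA per cell cannot be told apart, and the part of these shifts in the proteasome values was not tested.

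None of the 44 proteasome genes passed the test for a change with Tead4 shRNA. All 44 passed the filter on low counts, and edgeR's quasi-likelihood test called 0 higher and 0 lower at an adjusted p under 0.05, where 9.82% of all 14478 tested genes were called (5.34% higher and 4.48% lower). At an unadjusted p under 0.05 the count was also 0, against 21.7% of all tested genes, and DESeq2 and limma-voom likewise called 0. Log2 fold changes of Tead4 shRNA over control ran between -0.42 (Psmg2) and 0.31 (Psme2), with a median of 0.03, and the median over all tested genes was 0.02. The median size of the change, ignoring its sign, was 0.14 for the proteasome genes and 0.31 for all tested genes. It was 0.26 for the other 10448 tested genes within the same range of CPM. That range lies between the lowest and highest mean CPM of the 44 (6.42 for Psme2 and 483 for Psmc3), and levels were not otherwise matched. None of the 44 lay beyond 0.5 on the log2 scale, where 33.2% of all tested genes did, and none reached 2-fold in either shRNA library, where 19.6% did. These shares were smaller among the other 10448 tested genes within the same range of CPM, of which 2549 lay beyond 0.5 and 1020 reached 2-fold.

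The test does not show that the genes did not change, since standard errors lay between 0.22 and 0.36 on the log2 scale. The 95% intervals of the fold changes stayed within -0.98 and 1.05, both bounds being those of genes with few reads (Psmb10 and Psme2). Summed over the 44 genes, the level was 5449 CPM in ShA and 6296 CPM in ShB, against 5946 CPM in ShSC. As a share of all reads this was 0.550% in ShA (95% exact binomial interval 0.547 to 0.554) and 0.636% in ShB (0.632 to 0.640), against 0.582% in ShSC (0.578 to 0.585). The control library therefore lay between the Tead4 shRNA libraries.

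**Figure D1:**
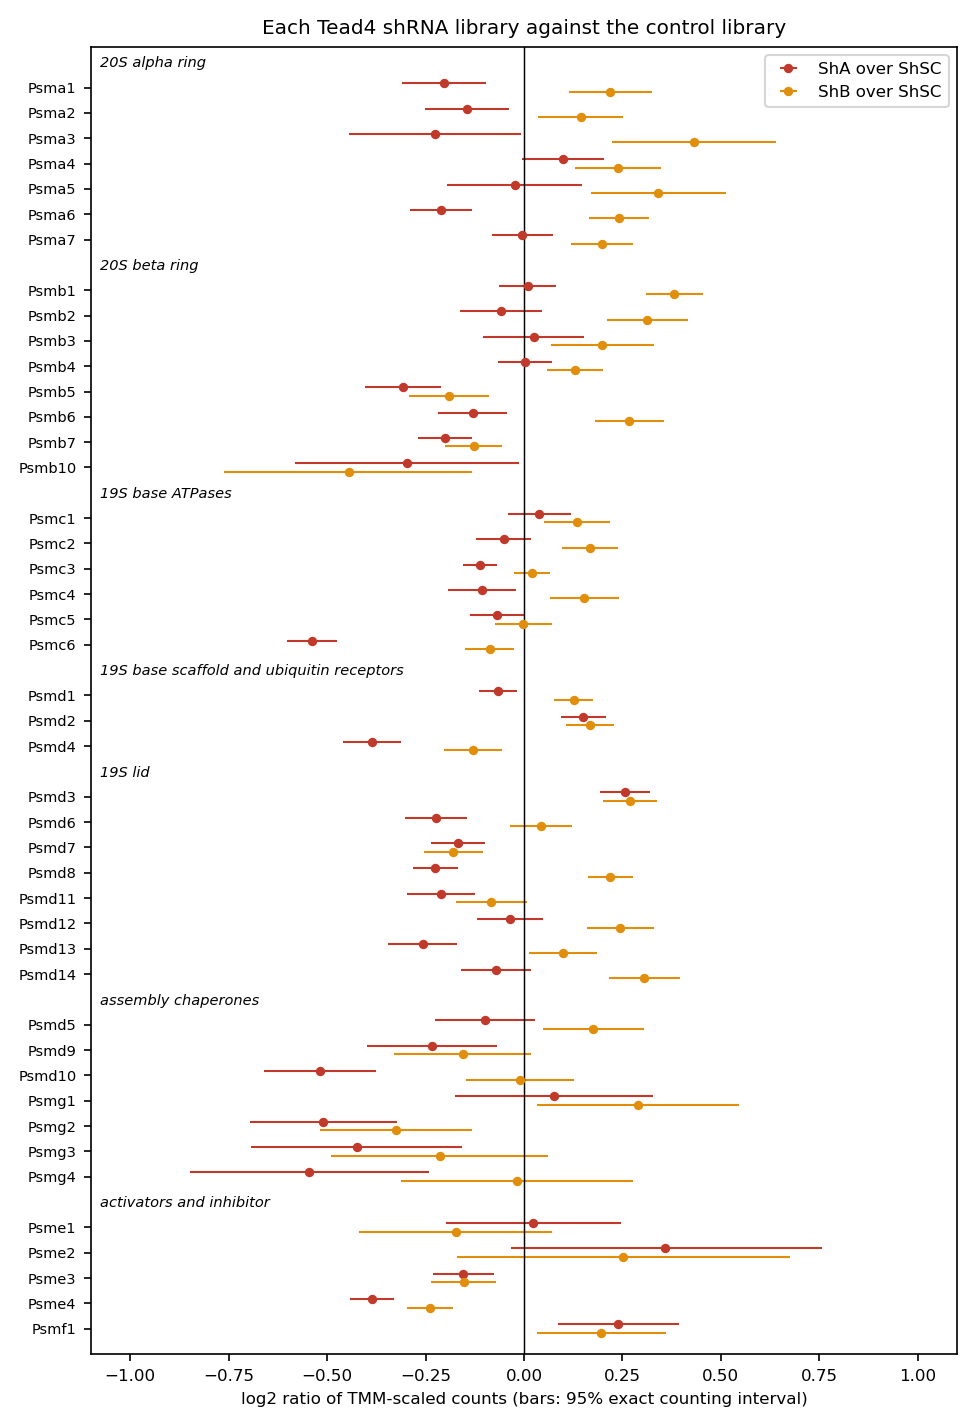
Log2 ratio of scaled counts (trimmed mean of M values, TMM) of each Tead4 shRNA library to the control library for the 44 proteasome genes, grouped by role; bars are 95% exact counting intervals from 1 library a side. All points lie between -0.55 and 0.43, and the ShB points stand to the right of the ShA points for 39 of the 44 genes.

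The scaled counts of ShA and of ShB were next divided by those of ShSC, and each ratio carries a 95% exact interval for counting error alone. Both ratios use the same control library and have no replicate check. The ShA ratio also moved with exon length among the other tested genes, as given below. With ShA, 25 of the 44 intervals lay below 0 and 3 above it (32.5% and 32.9% of all tested genes), and the median log2 ratio was -0.12. With ShB, 9 lay below 0 and 25 above it (28.0% and 29.7% of all tested genes), and the median was 0.14. The plot of ratios to the control library shows how small these displacements were: the lowest was -0.55 (Psmg4 with ShA) and the highest 0.43 (Psma3 with ShB).

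The 7 measured alpha subunits, which form the outer rings of the core and the gate through which substrates enter, had fitted log2 fold changes between 0.01 (Psma2) and 0.17 (Psma4). Psma7, the alpha 4 subunit, had 149 CPM in ShA and 172 CPM in ShB, against 150 CPM in ShSC. Psma6, the alpha 1 subunit, had 137 CPM in ShA and 187 CPM in ShB, against 159 CPM in ShSC. Psma1, the alpha 6 subunit, had 1502 reads in ShA and 1576 in ShB, against 1380 in ShSC, and log2 ratios to ShSC of -0.20 in ShA and 0.22 in ShB. In Psma6 and Psma1 the control library was the middle one, so the libraries with Tead4 shRNA did not stand together on 1 side of it. Psma3 (alpha 7) showed the widest gap between the Tead4 shRNA libraries of all 44 genes, at 360 reads in ShA and 445 reads in ShB, against 336 in ShSC, which is 17.9 CPM in ShA and 28.2 CPM in ShB, against 20.9 CPM in ShSC. Psma2, Psma4 and Psma5 completed the ring, with ratios to the control library between -0.14 (Psma2) and 0.10 (Psma4) in ShA and between 0.14 (Psma2) and 0.34 (Psma5) in ShB. Psma8, a testis form of alpha 4, had no row in the table.

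Among the 8 beta subunits, the constitutive catalytic ones gave no common picture. Psmb5, which carries the chymotrypsin-like site, had 1745 reads in ShA and 1483 in ShB, against 1724 in ShSC, which is 86.7 CPM in ShA and 94.1 CPM in ShB, against 107 CPM in ShSC. The fit gave it -0.25 on the log2 scale (SE 0.22, adjusted p = 0.582 by edgeR's quasi-likelihood test). Psmb7, with the trypsin-like site, had 178 CPM in ShA and 188 CPM in ShB, against 205 CPM in ShSC (log2 fold change -0.16, SE 0.23). Psmb6, with the caspase-like site, had 112 CPM in ShA and 148 CPM in ShB, against 123 CPM in ShSC (0.08, SE 0.23). Psmb5 and Psmb7 were thus lower in both Tead4 shRNA libraries than in the control library, though neither passed the test, and for Psmb6 the control library lay between them.

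The beta subunits without a proteolytic site were Psmb1, Psmb2, Psmb3 and Psmb4. Psmb1 had 174 CPM in ShA and 226 CPM in ShB, against 173 CPM in ShSC, the highest fitted value of the beta ring (log2 fold change 0.21, SE 0.24). Psmb4 had 193 CPM in ShA and 211 CPM in ShB, against 193 CPM in ShSC. Psmb2 and Psmb3 had fitted log2 fold changes of 0.14 and 0.11. Psmb10, the catalytic subunit that takes the place of Psmb7 in the immunoproteasome, had 208 reads in ShA and 147 in ShB, against 204 in ShSC, which is 10.3 CPM in ShA and 9.33 CPM in ShB, against 12.7 CPM in ShSC. Its log2 fold change of -0.37 (SE 0.30) was the lowest of the core, and at this depth its interval reached down to -0.98 and up to 0.25. The remaining immunoproteasome subunits, which the rule leaves out, were close to absent: Psmb8 had 4 reads in ShA and 0 in ShB, against 1 in ShSC, and Psmb9 had 0 in ShA and 1 in ShB, against 1 in ShSC. Psmb11, a thymus subunit, had no row in the table.

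The 6 ATPases of the 19S base form a ring that unfolds substrates and threads them into the core. Psmc3 (Rpt5) had the most reads of all 44 genes, 9183 in ShA and 7882 in ShB, against 7917 in ShSC. Its level was 456 CPM in ShA and 500 CPM in ShB, against 493 CPM in ShSC, and its fitted log2 fold change was -0.04 (SE 0.24). Psmc6 (Rpt4) had the lowest ratio of the ATPases in ShA, with 187 CPM in ShA and 255 CPM in ShB, against 271 CPM in ShSC. Its log2 ratio to the control library was -0.54 in ShA (95% exact interval -0.60 to -0.48) and -0.09 in ShB (-0.15 to -0.02), and the fit over both gave -0.30 (SE 0.24, adjusted p = 0.549 by the same test, edgeR's quasi-likelihood test). The gap between the Tead4 shRNA libraries was wider for Psmc6 than the gap between ShB and the control. Psmc1, Psmc2, Psmc4 and Psmc5 had fitted log2 fold changes between -0.03 (Psmc5) and 0.09 (Psmc1).

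The base also holds the scaffold subunits Psmd1 (Rpn2) and Psmd2 (Rpn1) and the ubiquitin receptor Psmd4 (Rpn10). Psmd1 had 366 CPM in ShA and 418 CPM in ShB, against 383 CPM in ShSC. Psmd2 had 291 CPM in ShA and 294 CPM in ShB, against 262 CPM in ShSC, so both Tead4 shRNA libraries were above the control library, by a fitted 0.16 on the log2 scale (SE 0.24). Psmd4 had 149 CPM in ShA and 178 CPM in ShB, against 195 CPM in ShSC, a fitted log2 fold change of -0.25 (SE 0.23). Adrm1 (Rpn13), the receptor with another symbol, had 50.1 CPM in ShA and 52.5 CPM in ShB, against 54.3 CPM in ShSC.

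Of the 8 lid subunits chosen by symbol, Psmd3 (Rpn3) had the highest fitted value, and both Tead4 shRNA libraries stood above the control library. It had 241 CPM in ShA and 243 CPM in ShB, against 202 CPM in ShSC, a log2 ratio of 0.26 in ShA (95% exact interval 0.19 to 0.32) and of 0.27 in ShB (0.20 to 0.34). The fitted log2 fold change of 0.26 (SE 0.23) had an adjusted p of 0.585 in edgeR's quasi-likelihood test. Psmd7 (Rpn8), the partner of the lid's deubiquitinase, had the lowest fitted value of the lid, with 177 CPM in ShA and 176 CPM in ShB, against 199 CPM in ShSC (log2 fold change -0.17, SE 0.23). The deubiquitinase itself, Psmd14 (Rpn11), had 110 CPM in ShA and 143 CPM in ShB, against 115 CPM in ShSC. Psmd8 (Rpn12) had 251 CPM in ShA and 342 CPM in ShB, against 294 CPM in ShSC, with the control library in the middle. The other lid genes, Psmd6, Psmd11, Psmd12 and Psmd13, had fitted log2 fold changes between -0.15 (Psmd11) and 0.11 (Psmd12).

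The 7 assembly chaperones help the rings and the base to form and are not part of the finished particle. They had the lowest median fold change of the 7 roles (-0.24), and 5 of the 7 chaperones had a negative value. Their median log2 ratio to ShSC was -0.42 in ShA and -0.02 in ShB, so the low value rested mostly on ShA. Psmg2 (PAC2), which with Psmg1 (PAC1) guides assembly of the alpha ring, had 447 reads in ShA and 398 in ShB, against 508 in ShSC, which is 22.2 CPM in ShA and 25.3 CPM in ShB, against 31.6 CPM in ShSC. Its log2 fold change of -0.42 (SE 0.24) was the lowest of the 44 genes, with an unadjusted p of 0.0933 and an adjusted p of 0.329 in edgeR's quasi-likelihood test. Its partner Psmg1 had 15.2 CPM in ShA and 17.6 CPM in ShB, against 14.4 CPM in ShSC, so the values of this pair lay on either side of the control. Psmg3 and Psmg4, the other pair of alpha-ring chaperones, had fitted log2 fold changes of -0.32 (SE 0.28) and -0.26 (SE 0.31). Among the chaperones of the base, Psmd10 (gankyrin) had 38.2 CPM in ShA and 54.4 CPM in ShB, against 54.7 CPM in ShSC, so ShB lay at the level of the control library and ShA below it (fitted log2 fold change -0.24, SE 0.24). Psmd5 and Psmd9 had fitted values of 0.04 and -0.20. Pomp, the chaperone that matures the beta rings and has another symbol, had 104 CPM in ShA and 136 CPM in ShB, against 113 CPM in ShSC.

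Activators other than the 19S cap bind the ends of the core. Psme4 (PA200), a large nuclear activator, had 5001 reads in ShA and 4343 in ShB, against 5217 in ShSC, with log2 ratios to ShSC of -0.39 in ShA and -0.24 in ShB, or -0.31 in the fit (SE 0.23, adjusted p = 0.495 by edgeR's quasi-likelihood test). Psme3 (PA28 gamma), which acts in the nucleus, had 140 CPM in ShA and 140 CPM in ShB, against 156 CPM in ShSC. The interferon-inducible activator is built from Psme1 and Psme2. Psme1 had 382 reads in ShA and 261 in ShB, against 300 in ShSC. Psme2 had 143 reads in ShA and 104 in ShB, against 89 in ShSC, and the highest fitted value of all 44 genes (0.31, SE 0.36). This value is uncertain, because 52.5% of the 72-base stretches of the Psme2 transcript also occur in the copy Psme2b, whose row had 1055 reads in ShA and 794 in ShB, against 765 in ShSC. Psmf1 (PI31), first described as an inhibitor of the core, had 43.0 CPM in ShA and 41.8 CPM in ShB, against 36.4 CPM in ShSC (0.22, SE 0.23).

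**Figure D2:**
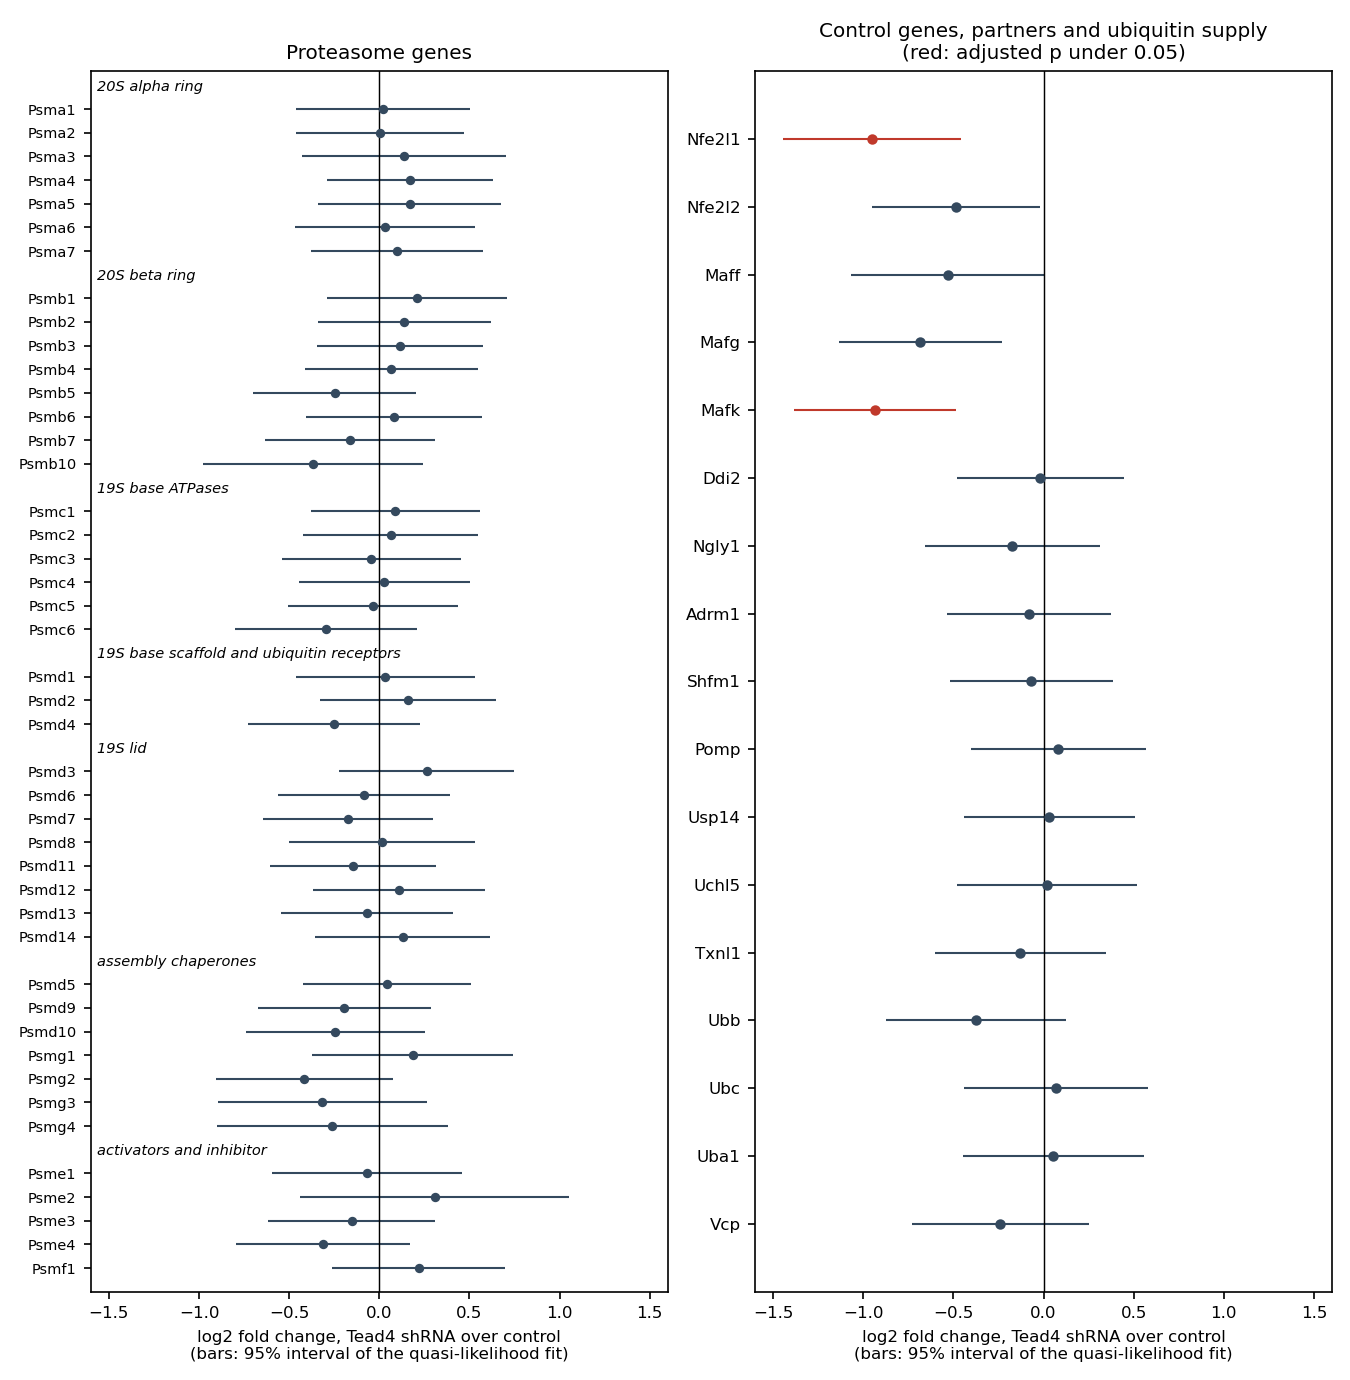
Fitted log2 fold change of Tead4 shRNA (2 libraries) over control (1 library) for the 44 proteasome genes, left, and for genes that control or work with the proteasome, right; bars are 95% intervals of edgeR's quasi-likelihood fit. Every proteasome interval includes 0, and Nfe2l1 and Mafk, in red, lie near -0.95 and -0.93.

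The gene of the main activator of the subunit genes passed the test. Nfe2l1, a membrane-bound factor that is released and cleaved when proteasome activity is short, had 18661 reads in ShA and 15882 in ShB, against 30050 in ShSC, which is 928 CPM in ShA and 1008 CPM in ShB, against 1871 CPM in ShSC. It fell by 0.95 on the log2 scale (SE 0.24, edgeR quasi-likelihood adjusted p = 0.0113). Mafk, a small Maf protein that pairs with Nfe2l1 on DNA, fell as well, with 46.3 CPM in ShA and 40.2 CPM in ShB, against 82.7 CPM in ShSC (log2 fold change -0.93, SE 0.22, adjusted p = 0.00651). Both libraries with Tead4 shRNA stood below the control library for these genes. Another small Maf gene, Mafg, was not called at -0.68 (SE 0.22, adjusted p = 0.0507), nor were Maff (-0.53, SE 0.26) and the relative Nfe2l2 (-0.49, SE 0.23). The genes for the steps that free Nfe2l1, the protease Ddi2 and the glycanase Ngly1, had -0.02 and -0.17. A likelihood-ratio test with the dispersion taken over all 3 libraries called 0 of all tested genes and ended the calls of Nfe2l1 and Mafk (adjusted p = 0.887 each). Its dispersion includes the difference between Tead4 shRNA and control, so it cannot decide whether these calls hold. Mafg passed in 3 alternatives (adjusted p = 0.0348 with no filter, 0.0487 with limma-voom and 0.0374 with the newer quasi-likelihood method of edgeR). Of the 7 genes of this list, 2 fell and 0 rose (4.48% and 5.34% of all tested genes), with a median of -0.53, and the difference between their changes and those of the subunits was not tested. In the same comparison all 5 genes listed for the unfolded protein response fell in edgeR's quasi-likelihood test, where 4.48% of all tested genes fell. That list was chosen with earlier results of these data known. The 5 genes had a median log2 fold change of -3.47: Ddit3 (CHOP, -4.75), the reticulum chaperone Hspa5 (-3.91), Herpud1 (-3.47), Atf4 (-2.55) and Xbp1 (-1.29). Their summed level was 945 CPM in ShA and 1088 CPM in ShB, against 11734 CPM in ShSC, and its part in the values of Nfe2l1 and Mafk was not tested. The libraries measure transcripts, so the amount of active Nfe2l1 protein is not given by these values.

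Because Nfe2l1 fell, promoters were searched for the core of the antioxidant response element, the motif it binds, written TGACNNNGC, on both strands. RefSeq promoter sequences, build GRCm38.p6, covering 250 bases before and 50 bases after the start, were at hand for 37 of the 44 genes. The motif was found in 6 of the 37 (16.2%), against 14.0% of the 27025 genes with such a sequence. These genes had fitted log2 fold changes of -0.31 (Psme4), -0.30 (Psmc6), -0.25 (Psmb5), -0.20 (Psmd9), 0.08 (Psmb6) and 0.11 (Psmd12). The median over all 44 genes was 0.03, and a difference between these 6 and the other members was not tested. The TEAD motif CATTCC was found in 4 of 37 (10.8%, against 16.6% of all), in Psmb5, Psmd8, Psmd9 and Psme2, and the NF-Y motif CCAAT in 12 of 37 (32.4%, against 41.1%). The heat shock element and the composite element of Atf4 and CHOP were found in none of the 37, with 0.662%, 0.222% and 0.352% of all promoters holding the 3 spellings searched. A match is a description of letters and not a binding site. In Psme4 the motif of the response element crosses the start, and it is not shown. In the other 5 genes its leftmost base lies at position -47 (Psmb5), -9 (Psmb6), -227 (Psmc6), -247 (Psmd12) or -31 (Psmd9), counted from the start. Stretches of up to 40 bases on either side are shown for these 5 genes, with the motif in capitals. They are cut at 250 bases before the start and at the start itself. Each is written 5′ to 3′ on the strand of the gene, where the motif may read in reverse complement.
Psmb5, chr14:54617996-54618082, minus strand: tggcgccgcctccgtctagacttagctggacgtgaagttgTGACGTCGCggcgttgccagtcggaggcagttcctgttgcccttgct
Psmb6, chr11:70525308-70525356, plus strand: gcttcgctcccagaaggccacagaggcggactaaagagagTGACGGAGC
Psmc6, chr14:45329574-45329645, plus strand: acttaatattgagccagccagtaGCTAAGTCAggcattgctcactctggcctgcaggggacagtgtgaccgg
Psmd12, chr11:107479278-107479329, plus strand: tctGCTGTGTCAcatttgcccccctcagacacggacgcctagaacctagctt
Psmd9, chr5:123228119-123228189, plus strand: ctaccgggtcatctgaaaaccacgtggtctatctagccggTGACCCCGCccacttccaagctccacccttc
In Psmb5, Psmb6 and Psmd9 the motif reads forward, and in Psmc6 and Psmd12 it reads on the opposite strand.

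The clearest regularity among the 44 genes was between the Tead4 shRNA libraries. Set directly against ShA, ShB had a positive log2 ratio for 39 of the 44 genes, with a median of 0.21. The exact interval lay above 0 for 31 genes and below 0 for 0, where 25.3% and 25.4% of all tested genes lay above and below. All 7 alpha subunits had an interval above 0, between 0.14 (Psma4) and 0.66 (Psma3), as did 7 of the 8 beta subunits, 13 of the 17 genes of the 19S cap and 3 of the 7 assembly chaperones. Among the 5 activators and inhibitors it was 1, Psme4 (0.15). The 5 genes with a negative ratio were Psmb10, Psmd7, Psme1, Psme2 and Psmf1, between -0.20 (Psme1) and -0.01 (Psmd7), and none of their intervals excluded 0. These ratios compare 1 library with 1 library and have no replicate check.

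Other complexes of many subunits showed the same direction. Of the 9 subunits of the COP9 signalosome, a relative of the lid, 8 had a ShB over ShA interval above 0, with a median of 0.31, and of the 8 subunits of the cytosolic chaperonin 7 did, with a median of 0.14. The direction was therefore found in other housekeeping complexes, and nothing here sets the proteasome apart from them. It was not confined to such complexes. Of the 7 myotube markers, 6 had an interval above 0 and 1 below it, with a median of 0.27. Of the 16 genes for ubiquitin, its activating enzymes, shuttle proteins and Vcp, 6 lay above 0 and 7 below. Transcript length moved with the ratio of ShB over ShA across the whole table. Among the other tested genes the median log2 ratio of ShB over ShA was 0.20 for exon lengths up to 1000 bases (479 genes), 0.08 up to 2000 bases (2227 genes), 0.02 up to 3000 bases (2554 genes), -0.03 up to 5000 bases (3834 genes) and -0.10 above that (3117 genes). The proteasome genes, with a median exon length of 1505 bases, had medians of 0.21 (7 genes), 0.21 (21 genes), 0.13 (11 genes) and 0.23 (4 genes) in the first 4 of these ranges. Against ShSC, the medians of the other tested genes in the same ranges, short to long, were -0.10, -0.07, -0.02, 0.03 and 0.12 with ShA. With ShB they were 0.08, 0.02, -0.002, 0.006 and 0.02. The proteasome genes had -0.13, -0.11, -0.15 and -0.03 with ShA in the first 4 ranges, and 0.20, 0.13, 0.14 and 0.19 with ShB. The part of length in these differences was not tested.

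**Figure D3:**
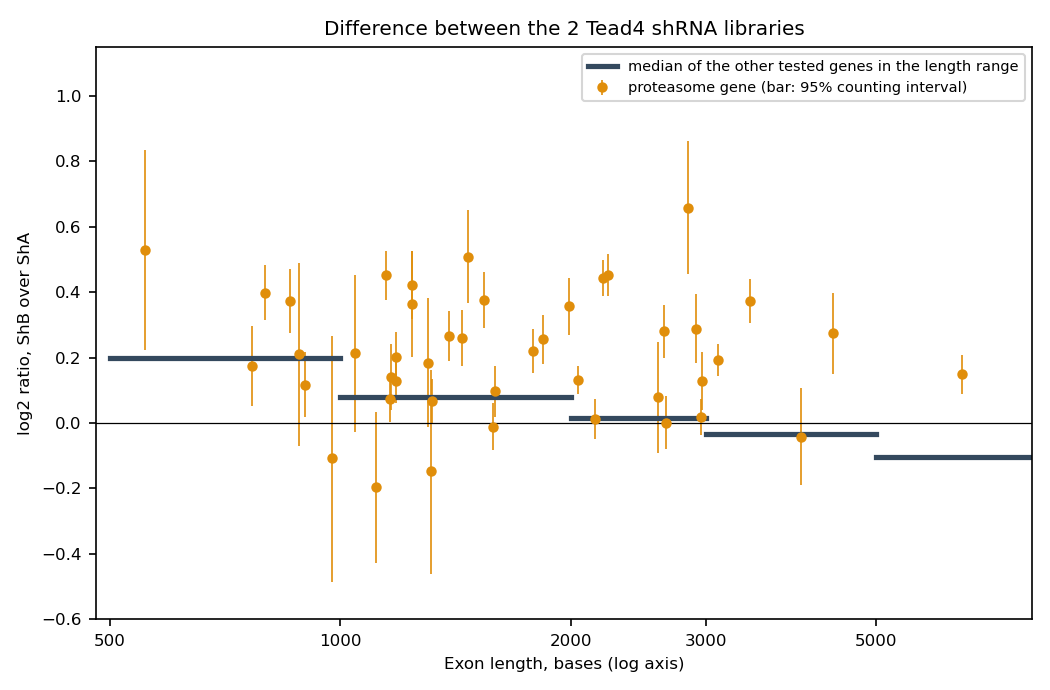
Log2 ratio of ShB over ShA for each proteasome gene (points, with 95% exact counting intervals) against its exon length in bases on a log axis; dark lines give the median of the other tested genes in each length range, the last being open-ended. The dark lines step down between 0.20 and -0.10, and 39 of the 44 points lie above 0.

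**Figure D4:**
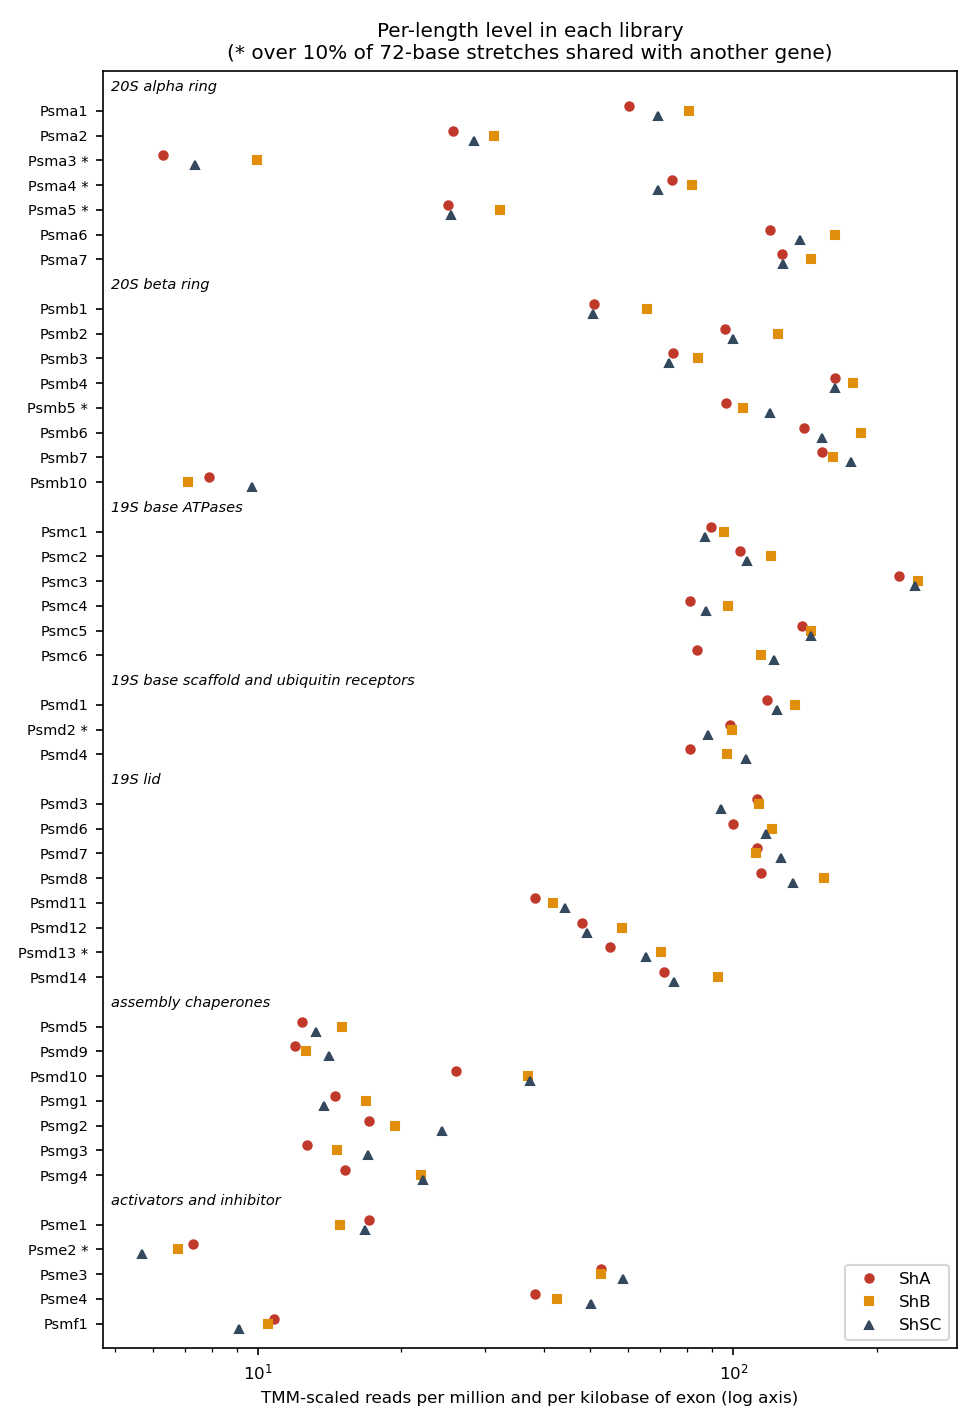
TMM-scaled CPM per kilobase of exon, on a log axis, of the 44 proteasome genes in ShA, ShB and ShSC. Psmc3 is the highest gene in every library, the assembly chaperones lie at 37.3 or below, and genes marked with a star share over 10% of their 72-base stretches with another gene.

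Levels of different genes were compared per length, as CPM per kilobase of exon, with exon lengths from GENCODE M21. In the 17 chosen genes of the 19S cap the median was 98.2 in ShA and 111 in ShB, against 106 in ShSC. In the 15 core genes it was 74.5 in ShA and 84.1 in ShB, against 73.3 in ShSC. Without genes that share over 10% of their 72-base stretches with another gene, the cap (15 genes) had 100 in ShA and 113 in ShB, against 107 in ShSC, and the core (11 genes) had 95.9 in ShA and 124 in ShB, against 99.98 in ShSC, so the core was then nearer to the cap in ShA and ShSC and above it in ShB. The order of the genes was led by Psmc3 in every library (223 in ShA and 245 in ShB, against 241 in ShSC). Within the core, the highest were Psmb4 in ShA (163), Psmb6 in ShB (185) and Psmb7 in ShSC (177). Psmb10 was far below Psmb7, at 7.89 in ShA and 7.12 in ShB, against 9.69 in ShSC, where Psmb7 had 154 in ShA and 162 in ShB, against 177 in ShSC. The 7 assembly chaperones had a median of 14.5 in ShA and 16.8 in ShB, against 17.0 in ShSC. Each of them was below all of the 17 chosen cap genes in each library.

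Some of these levels are bounded by how reads were assigned. Of the 44 genes, 27 shared no 72-base stretch with transcripts of another gene, and 7 shared over 10%: Psma3, Psma4, Psma5, Psmb5, Psmd2, Psmd13 and Psme2. The shared part was 41.5% for Psma5 and 42.0% for Psmb5, whose partners include predicted genes, 21.4% for Psma3, and 14.1% for Psmd13, which overlaps Sirt3 on the opposite strand. The library kit does not mark strand, and how reads with several matches were counted is not given in the sources used here, so the low levels of Psma3 (6.29 in ShA and 9.92 in ShB, against 7.35 in ShSC) and Psma5 (25.1 in ShA and 32.3 in ShB, against 25.5 in ShSC) are uncertain. Without these 7 genes the median fitted log2 fold change was 0.01 and the median of ShB over ShA 0.21.

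The partners that work with the proteasome under other symbols did not pass the test either. Of 9 such genes, 0 rose and 0 fell in edgeR's quasi-likelihood test, where 5.34% and 4.48% of all tested genes did. At an unadjusted p under 0.05 there were 0, against 21.7% of all tested genes, and the median log2 fold change of the 9 was -0.08. Among them the particle-bound factor Ecm29, listed as AI314180, had 238 CPM in ShA and 245 CPM in ShB, against 262 CPM in ShSC, and the ubiquitin ligase Ube3c had 188 CPM in ShA and 191 CPM in ShB, against 218 CPM in ShSC. Of 16 genes for ubiquitin, its activating enzymes, shuttle proteins and the segregase Vcp, 0 rose and 0 fell, with 1 at an unadjusted p under 0.05 and a median of -0.07. In lists this short, 0 adjusted calls differ little from the shares over all tested genes. The ubiquitin gene Ubb had 550 CPM in ShA and 482 CPM in ShB, against 669 CPM in ShSC (-0.37, SE 0.24), and the activating enzyme Uba1 had 658 CPM in ShA and 609 CPM in ShB, against 611 CPM in ShSC.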

How the data were processed

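Raw read counts for each Ensembl gene and library were deposited by the authors, and beside each count a normalized score, which per the file headers and values is the count times 1 factor per library (0.801 for ShA, 1.02 for ShB and 1.00 for ShSC), rounded; 0 values were off by more than 1. Per the submitters' processing notes, the mm9 build, DESeq, Cufflinks 0.8.2 and TopHat 1.0.12 were used, with no role or order; the counting program is not given in the sources used here. Counts of genes passing filterByExpr (14478) were TMM-scaled and tested in R 4.3.3 with edgeR 4.0.16 (legacy quasi-likelihood F test, 2 Tead4 shRNA libraries over 1 control, Benjamini-Hochberg adjustment, threshold 0.05). The design has 1 residual degree of freedom, from the difference between ShA and ShB, and ShSC was taken to vary by as much. The variance of each gene was moderated towards that of all tested genes, with 20.9 prior degrees of freedom. SE is the absolute log2 fold change over the square root of F. Intervals of fitted fold changes are the estimate plus or minus SE times a quantile of the t distribution. Intervals of ratios and of shares of reads are exact and cover counting error only. PCR reads without molecular identifiers are not independent, so these exact intervals may be too narrow. The procedure was tested on simulated data. There the changed genes had larger changes than any of the 44 genes showed, so changes of the size seen here are not covered. DESeq2 1.42.0, limma 3.58.1 (voom), other scalings and no filter were alternatives. Exon lengths and shared 72-base stretches come from GENCODE M21, of a later build, so no coordinates are taken from it; all 44 genes matched by identifier. Members, roles and gene lists were chosen with earlier results of these data known. Named were called genes, the highest and lowest of each role, those with most reads, and others to account for every member. A gene of the ubiquitin list is counted but not reported by name here.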

Additional observations from a re-analysis of the deposited data

How the results depend on the processing

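The count of proteasome genes called was 0 in each direction under every alternative run: RLE, upper-quartile and total-count scaling, no filter, DESeq2, limma-voom, the newer quasi-likelihood method and a likelihood-ratio test with the dispersion over all 3 libraries. The lowest adjusted p of the 44 genes ran between 0.325 (RLE) and 0.890 (likelihood-ratio test). Over all genes DESeq2 called 464 higher and 374 lower, and the likelihood-ratio test 0 and 0 (528 at an unadjusted p under 0.05). That last test also ended the calls of Nfe2l1, Mafk, Tead4 and Hspa5 (adjusted p = 0.887 each). Its dispersion counts the difference between the groups as spread, so its 0 calls cannot tell changed from unchanged genes. Mafg passed with no filter (adjusted p = 0.0348), limma-voom (0.0487) and the newer quasi-likelihood method (0.0374). The median fold change of the 44 genes lay between 0.01 and 0.07 across scalings and tools, and leaving out 1 Tead4 shRNA library gave -0.12 to 0.14, so its sign rests on which library is kept. The sign of values next to 0 turned for Psma2 (-0.0028 with RLE, -0.0026 with DESeq2, -0.0016 with limma-voom), Psmc3 (0.0025 with total counts) and Psmc5 (0.0055 with upper-quartile and 0.0118 with total-count scaling), none of them called. The ShB over ShA intervals above 0 numbered 30 to 31 across scalings, chosen after seeing the data, as were the newer quasi-likelihood method and the shared-stretch limit. With 1 control library, no call is checked against a second control. No paired analysis was possible because the control has 1 library.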
